A study of Mus musculus with 24 samples.

Results

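The synaptic vesicle release machinery was taken as 45 genes chosen by symbol from what their proteins are known to do at nerve terminals. Each of the 45 symbols matched exactly 1 of the 47643 gene identifiers in the count data, and all 45 passed the filter on low counts. The genes were read in 4 role groups, namely 9 SNAREs and their handling factors, 10 calcium sensors and complexins, 13 priming, active zone and Rab3 genes, and 13 vesicle membrane proteins, synapsins and vesicular transporters.

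Vesicles fuse with the plasma membrane when SNARE proteins on the vesicle pair with SNARE proteins on the target membrane. Synaptotagmins sense the calcium that enters the terminal, complexins hold and assist the partly assembled SNARE complex, and active zone scaffolds with their priming factors keep vesicles ready near calcium channels. Nociceptors, the sensory neurons that detect harmful stimuli, use this machinery to release glutamate and neuropeptides in the spinal cord and in the skin, while their cell bodies in the dorsal root ganglia (DRG) hold most of the messenger RNA.

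Cells were sorted for the green reporter from the L4 DRG of 4 control and 4 Nav-Tsc2 mice. All mice carried Nav1.8-Cre and the reporter Rosa26-ZsGreen, together with Tsc2 flox/+ in control and Tsc2 flox/null in Nav-Tsc2 mice. Tsc2 encodes tuberin, which with its partner holds back the growth regulator mTORC1, and the comparison asks how its loss alters gene expression in nociceptors. The floxed allele was thus in both genotypes and the control cells could lose 1 of their Tsc2 copies, whereas Nav-Tsc2 mice also carried a null allele in every cell of the body. All mice were 8-9 weeks old and of a mixed C57BL/6 and AJ background, and mice 1 and 2 of each genotype were male and mice 3 and 4 female. The sciatic nerve on the other side had been crushed 3 d earlier in all of them, and no ganglion from an animal without a crush was analysed here. Nav1.8-Cre is active mainly in C-fiber nociceptors and also in some neurons with myelinated axons, and reporter sorting does not separate these.

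Each mouse gave 3 libraries of 100 cells, whose counts were summed. The mouse totals lay between 47959617 and 61290435 counts on genes. The single libraries held from 12210899 to 28641787 counts in control and from 8339220 to 34228180 in Nav-Tsc2 mice. The libraries of a mouse had a consensus correlation of 0.0785 over all genes, so most of the spread within a genotype lay between libraries of 100 cells rather than between mice. Levels are given as normalized CPM, the counts of a gene per 1000000 counts of the mouse after scaling between mice. In bulk samples such as these, fewer cells of a type and less RNA per cell cannot be told apart. Tsc2 itself stood at 13.4, 24.7, 21.5 and 24.1 CPM in control mice 1 to 4 and at 8.70, 8.51, 7.30 and 11.0 CPM in Nav-Tsc2 mice 1 to 4, without overlap. It fell by 1.24 on the log2 scale (SE 0.22, adjusted p = 0.0040, edgeR quasi-likelihood test with Benjamini-Hochberg adjustment). The counts cover the whole gene, so the floxed exons were not seen on their own.

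In the sorted cells of Nav-Tsc2 mice, part of the release machinery genes had a lower level and another part a higher level than in control. Of the 45 genes, 9 were called lower in Nav-Tsc2 mice (20.0%), among 17178 tested genes of which 8.00% were called lower. These 9 were Snap25, Stx1a and Vamp1 of the SNAREs, the calcium sensor Syt2 and the complexin Cplx2, Rab3c and its effector Rph3a, and the vesicle membrane genes Sv2b and Sypl. Another 5 were called higher (11.1%, against 9.12% of all genes tested), namely the SNARE inhibitor Stxbp5, the synaptotagmins Syt5, Syt7 and Syt9, and the vesicle membrane gene Syngr1. A call required that the adjusted p was under 0.05 and that the log2 fold change lay beyond 0.5 in either direction, which is a 1.41-fold difference. The count of higher genes was 3 without control 1, without Nav-Tsc2 1 or without Nav-Tsc2 2, and between 4 and 7 without any of the other mice.

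The remaining 31 genes were not called, and 25 of the 45 lay within 1.5-fold of equal levels. The median log2 fold change of the 45 genes was -0.17, against 0.00825 for all genes tested, with 25 genes below 0 and 20 above. Mice of the genotypes did not overlap for 12 of the 45 genes on the lower side (26.7%, against 12.3% of all genes tested) and for 8 on the higher side (17.8%, against 14.6%). By the adjusted p alone 17 of the 45 passed, where 21.1% of all genes tested did. The 3 that passed it within the fold limit were Syt4 at a log2 fold change of 0.38 (SE 0.11, adjusted p = 0.0322), Slc17a6 at 0.32 (SE 0.09, adjusted p = 0.0291) and Unc13a at -0.35 (SE 0.10, adjusted p = 0.0397), each by the edgeR quasi-likelihood test.

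**Figure D1:**
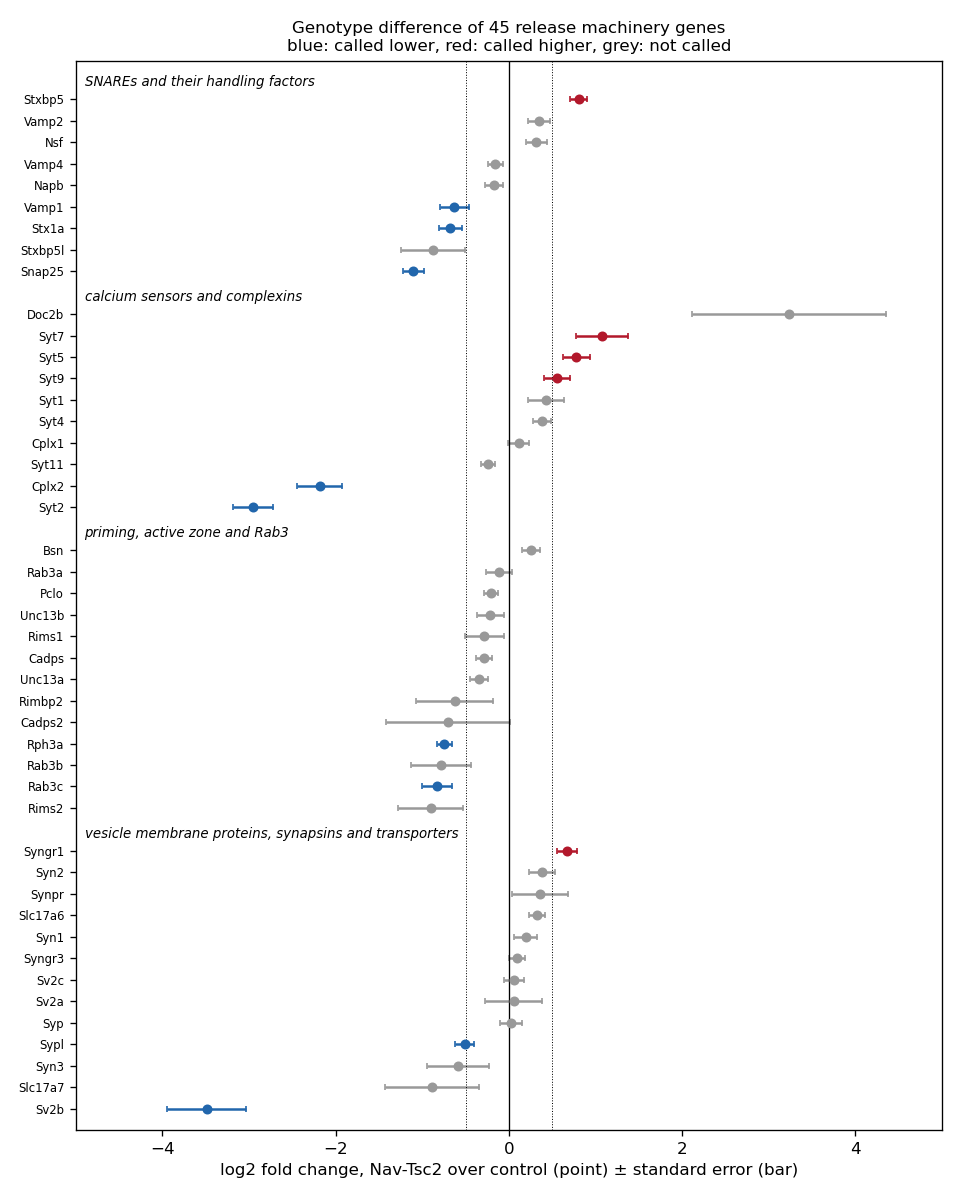
Log2 fold change of Nav-Tsc2 over control for the 45 release machinery genes in their 4 role groups, with bars for ± 1 standard error of the edgeR fit over 4 mice per genotype and dotted lines at the fold limits of -0.5 and 0.5. Blue points mark the 9 genes called lower, red points the 5 called higher and grey points the 31 not called, and the largest called difference is that of Sv2b at -3.49.

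The messages were very unequal in amount. Together the 45 genes took 14554 to 15842 CPM in control and 13317 to 14244 CPM in Nav-Tsc2 mice. In scaled counts this is 1.46% to 1.58% and 1.33% to 1.42% of the total. Snap25 supplied 28.5% ± 3.37 (SD, n = 4) of this sum in control and 15.0% ± 1.30 (SD, n = 4) in Nav-Tsc2 mice. Syt4 supplied 19.0% ± 2.27 (SD, n = 4) and 27.9% ± 1.95 (SD, n = 4), so by CPM Snap25 led the set in control and Syt4 in Nav-Tsc2 mice. This order depends on gene length. Per kilobase of exon Syt4 led in both genotypes, at 754 against 648 CPM for Snap25 in control and 983 against 302 CPM in Nav-Tsc2 mice. Syt11 came next in both genotypes with 9.74% and 9.25%, and Synpr followed with 4.26% and 6.07%. At the low end, Doc2b, Slc17a7 and Rimbp2 each averaged below 4 CPM in both genotypes.

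Among the SNAREs and their handling factors, 3 of 9 genes fell (33.3%, against 8.00% of all genes tested) and 1 rose (11.1%, against 9.12%). The median log2 fold change was -0.17. The 9 genes summed to 5017 to 6476 CPM in control and 3359 to 3848 CPM in Nav-Tsc2 mice. Snap25 (chr2:136713453-136782428, GRCm38), which encodes the plasma membrane SNARE that botulinum toxins of several types cut, made up most of that sum. Its level was 4643, 5012, 3499 and 4456 CPM in control mice 1 to 4 and 1939, 1829, 2285 and 2151 CPM in Nav-Tsc2 mice 1 to 4. No Nav-Tsc2 mouse reached the lowest control mouse, and Snap25 fell by 1.10 on the log2 scale (SE 0.12, adjusted p = 0.0003, edgeR quasi-likelihood test). It was also the gene of this group with the highest level per kilobase of exon, at 648 CPM per kb in control and 302 CPM per kb in Nav-Tsc2 mice.

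Syntaxin 1A, the partner of Snap25 in the plasma membrane, is encoded by Stx1a (chr5:135023482-135051100). The control mice had 94.8, 91.0, 78.5 and 111 CPM and the Nav-Tsc2 mice 52.5, 60.8, 68.5 and 52.9 CPM. These ranges did not meet, and Stx1a fell by 0.68 (log2, SE 0.13, adjusted p = 0.0059, edgeR). Vamp1 (chr6:125215551-125245964), a vesicle SNARE, was at 62.9, 64.7, 81.3 and 108 CPM in control and 49.6, 47.7, 51.6 and 56.1 CPM in Nav-Tsc2 mice, also without overlap. Its log2 fold change was -0.63 (SE 0.17, adjusted p = 0.0265, edgeR). The call on Vamp1 was lost without control 4 (log2 fold change -0.44), without Nav-Tsc2 1, 2 or 3 (adjusted p = 0.0748, 0.0699 and 0.0620) and in the fit of all 24 libraries that treats mice as a random effect (adjusted p = 0.0606).

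The gene of this group that rose was Stxbp5 (chr10:9755547-9901079), which encodes tomosyn, a protein that binds syntaxin and SNAP25 and holds back their pairing with vesicle SNAREs. It was measured at 36.4, 37.1, 33.7 and 40.9 CPM in control mice and at 63.4, 63.3, 61.8 and 70.1 CPM in Nav-Tsc2 mice. The genotypes were clearly apart, with little spread within each, and Stxbp5 rose by 0.80 (log2, SE 0.10, adjusted p = 0.0005, edgeR). Its paralog Stxbp5l, the gene of the group with the lowest level per length, was not called. Stxbp5l was at 28.4, 15.2, 6.44 and 14.0 CPM in control and between 7.59 and 9.36 CPM in Nav-Tsc2 mice, with overlap and most of the spread in the controls. Its adjusted p was 0.125 with all mice and 0.0133 without control 3 (log2 fold change -1.15, edgeR).

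The other SNARE genes were not called. Vamp2, the main vesicle SNARE of many neurons, was at 157 to 249 CPM in control and 251 to 263 CPM in Nav-Tsc2 mice, and its log2 fold change of 0.35 (SE 0.12, adjusted p = 0.0778, edgeR) missed the threshold. Nsf, the ATPase that takes spent SNARE complexes apart, had a log2 fold change of 0.32 (SE 0.12) with overlapping mice. Napb, its adaptor, and Vamp4, a SNARE of the Golgi and endosomes, stood at -0.17 (SE 0.10) and -0.16 (SE 0.09), also with overlap.

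In the group of calcium sensors and complexins, 2 of 10 fell (20.0%, against 8.00% of all genes tested) and 3 rose (30.0%, against 9.12%). The median log2 fold change of the group was 0.41. Its genes summed to 5166 to 5803 CPM in control and to 5886 to 6590 CPM in Nav-Tsc2 mice, with Syt4 and Syt11 as the main part. The 2 genes that fell had some of the largest differences of the whole set. Syt2 (chr1:134646677-134762593) encodes a fast calcium sensor for synchronous release. It was at 41.2, 55.0, 30.2 and 59.6 CPM in control mice 1 to 4 and at 5.99, 5.06, 7.25 and 5.65 CPM in Nav-Tsc2 mice 1 to 4. The means differed 7.77-fold, and Syt2 fell by 2.96 on the log2 scale (SE 0.23, adjusted p = 6.09e-05, edgeR quasi-likelihood test).

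Cplx2 (chr13:54371349-54383917) encodes complexin 2, which binds assembled SNARE complexes. Its values were 161, 214, 116 and 125 CPM in control and 22.0, 35.6, 31.1 and 47.0 CPM in Nav-Tsc2 mice, so the highest Nav-Tsc2 mouse stayed below the lowest control mouse. Cplx2 fell by 2.18 (log2, SE 0.26, adjusted p = 0.0005, edgeR). Its libraries of 100 cells scattered widely, from 5.85 to 318 CPM in control and from 12.1 to 82.8 CPM in Nav-Tsc2 mice. Cplx1, which encodes the related complexin 1, was at 333 to 467 CPM in control and 376 to 463 CPM in Nav-Tsc2 mice, and its log2 fold change of 0.11 (SE 0.12, adjusted p = 0.576) did not pass the test.

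The 3 synaptotagmin genes that rose were each of moderate level. Syt5 (chr7:4539765-4547541), a synaptotagmin found on secretory vesicles, was at 52.9, 61.3, 70.9 and 69.3 CPM in control and 114, 139, 92.6 and 91.1 CPM in Nav-Tsc2 mice, which did not overlap (log2 fold change 0.78, SE 0.15, adjusted p = 0.0067, edgeR). Syt7 (chr19:10389090-10453180) encodes a slow sensor of high calcium affinity that acts in asynchronous release and in fusion of lysosomes. Its levels were 65.6, 52.5, 157 and 124 CPM in control and 197, 204, 218 and 221 CPM in Nav-Tsc2 mice. The controls of the 2 sexes were far apart, whereas the Nav-Tsc2 mice were close together above all of them (log2 fold change 1.07, SE 0.30, adjusted p = 0.0324, edgeR). Syt9 (chr7:107370728-107548656), a further calcium sensor of secretory vesicles, was at 79.0, 92.9, 129 and 106 CPM in control and 172, 149, 134 and 143 CPM in Nav-Tsc2 mice, a narrow separation (log2 fold change 0.55, SE 0.15, adjusted p = 0.0265, edgeR).

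Of these calls, that on Syt5 was kept in each of the 16 alternative fits. The call on Syt7 was lost without control 1 and without any of Nav-Tsc2 1 to 4 (adjusted p from 0.0679 to 0.0723), and that on Syt9 without control 1 or 2 and without Nav-Tsc2 1 or 2 (adjusted p from 0.0512 to 0.0811) and with the replicate number as a block (adjusted p = 0.0720).

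The most abundant messages of this group per length were those of Syt4 and Syt11, both synaptotagmins that lack normal calcium binding. Syt4, at 754 CPM per kb in control and 983 CPM per kb in Nav-Tsc2 mice, is known from dense core vesicles, the carriers of neuropeptides. Its levels were 3451, 2957, 2637 and 2688 CPM in control and 4054, 3573, 4252 and 3423 CPM in Nav-Tsc2 mice, with control 1 above the lowest Nav-Tsc2 mouse. Syt11 was at 1493, 1688, 1383 and 1435 CPM in control and 1335, 1275, 1188 and 1266 CPM in Nav-Tsc2 mice. Although its difference was small (log2 fold change -0.24, SE 0.08, adjusted p = 0.0601, edgeR), Syt11 was the gene whose 12 Nav-Tsc2 libraries all lay below all 12 control libraries, a separation seen in 0.792% of all genes tested.

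Syt1, the main sensor for synchronous release in many neurons, was at 127, 118, 246 and 202 CPM in control and 233, 238, 236 and 226 CPM in Nav-Tsc2 mice. The Nav-Tsc2 mice lay within the range of the female controls and above the male controls, and the difference over all mice was not called (log2 fold change 0.43, SE 0.21, adjusted p = 0.192, edgeR). Without control 3 its adjusted p was 0.0269 at a log2 fold change of 0.64. Doc2b, a soluble calcium sensor and the gene of this group with the lowest level per length, was barely detected. It was at 0.0508, 0.0568, 0 and 0.602 CPM in control and at 1.79, 2.30, 1.65 and 0.965 CPM in Nav-Tsc2 mice. The Nav-Tsc2 mice were all above the controls, and Doc2b was not called (adjusted p = 0.0686, edgeR), although it was in the fits by DESeq2 (adjusted p = 0.0095), over 24 libraries (adjusted p = 3.61e-05) and without control 4 (adjusted p = 0.0053).

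Of the 13 priming, active zone and Rab3 genes, 2 fell (15.4%, against 8.00% of all genes tested) and none rose (against 9.12%). The log2 fold change was below 0 for 12 of the 13, as for 49.3% of all genes tested, and its median was -0.35. Summed over the 13 genes, the level was 1554 to 1807 CPM in control and 1180 to 1339 CPM in Nav-Tsc2 mice. Rph3a (chr5:120940499-121010092) encodes rabphilin 3A, which binds Rab3 on vesicles and SNAP25 on the target membrane. It was at 252, 311, 302 and 292 CPM in control mice 1 to 4 and at 183, 164, 166 and 175 CPM in Nav-Tsc2 mice 1 to 4. The genotypes were well apart, and Rph3a fell by 0.75 on the log2 scale (SE 0.09, adjusted p = 0.0004, edgeR).

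Rab3c (chr13:110054187-110280996) encodes a small GTPase of secretory vesicles. The control mice had 311, 287, 305 and 511 CPM and the Nav-Tsc2 mice 200, 196, 210 and 192 CPM. Control 4 was far above the other controls, and all Nav-Tsc2 mice were below all controls (log2 fold change -0.83, SE 0.17, adjusted p = 0.0087, edgeR). The call on Rab3c was kept in all 16 alternative fits, that without control 4 included. Rab3a, the member of the Rab3 family with the highest level per length (106 CPM per kb in control, 97.7 CPM per kb in Nav-Tsc2 mice), was at 168 to 276 CPM in control and 195 to 251 CPM in Nav-Tsc2 mice and did not pass the test (log2 fold change -0.11, SE 0.15, adjusted p = 0.659). Rab3b had a log2 fold change of -0.78 (SE 0.35, adjusted p = 0.147, edgeR) with control 1 at 98.0 CPM and the other 7 mice between 23.4 and 41.1 CPM.

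None of the factors that ready vesicles for fusion or of the scaffolds that hold them was called with all mice. Unc13a, whose product Munc13-1 opens syntaxin during priming, was at 35.6, 35.5, 37.1 and 41.9 CPM in control and 27.8, 31.6, 29.9 and 28.6 CPM in Nav-Tsc2 mice. These mice did not overlap, and the change stayed within the fold limit. Cadps, which primes dense core vesicles, was at 389 to 441 CPM in control and 295 to 382 CPM in Nav-Tsc2 mice, also without overlap (log2 fold change -0.29, SE 0.09, adjusted p = 0.0504, edgeR). Pclo, which encodes the large scaffold piccolo, had a log2 fold change of -0.21 (SE 0.08, adjusted p = 0.0953), and Bsn, which encodes its relative bassoon, was the gene of the group above 0, at 0.25 (SE 0.11, adjusted p = 0.130). The scaffold genes Rims1 and Rims2, which tie vesicles to calcium channels, had log2 fold changes of -0.28 (SE 0.23) and -0.90 (SE 0.38) with overlapping mice, and Rims2 passed the test without control 4 (log2 fold change -1.17, adjusted p = 0.0186, edgeR). Rimbp2, the gene of the group with the lowest level per length, was at 1.16 to 4.54 CPM in control and 1.35 to 2.74 CPM in Nav-Tsc2 mice.

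Among the 13 vesicle membrane proteins, synapsins and transporters, 2 genes fell (15.4%, against 8.00% of all genes tested) and 1 rose (7.69%, against 9.12%). The median log2 fold change was 0.06. The group summed to 1950 to 2741 CPM in control and 2545 to 2663 CPM in Nav-Tsc2 mice. Sv2b (chr7:75114894-75309262) had the largest called difference of the 45 genes. It encodes a glycoprotein of the vesicle membrane that belongs to a family of botulinum toxin receptors. Sv2b was at 142, 178, 91.1 and 167 CPM in control mice 1 to 4 and at 3.62, 12.4, 18.7 and 16.6 CPM in Nav-Tsc2 mice 1 to 4. The means differed 11.3-fold, and Sv2b fell by 3.49 on the log2 scale (SE 0.45, adjusted p = 0.0008, edgeR).

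The other Sv2 genes were not called. Sv2c, the most abundant of the family, was at 271 to 343 CPM in control and 279 to 369 CPM in Nav-Tsc2 mice (log2 fold change 0.06, SE 0.11, adjusted p = 0.766, edgeR). Sv2a was at 17.9 to 32.0 CPM and 10.3 to 32.1 CPM (log2 fold change 0.05, SE 0.33, adjusted p = 0.936). The sign of both small differences changed when some of the mice were left out. Sypl (chr12:32953891-32979860), a relative of synaptophysin that many cells other than neurons use, was at 69.2, 68.7, 61.4 and 73.1 CPM in control and 49.1, 43.6, 54.4 and 43.9 CPM in Nav-Tsc2 mice. The genotypes did not overlap, and Sypl fell by 0.51 (log2, SE 0.10, adjusted p = 0.0079, edgeR), just past the fold limit. It was no longer called, at a log2 fold change of -0.48, without control 4, Nav-Tsc2 2 or Nav-Tsc2 4.

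Syngr1 (chr15:80091334-80119501), which encodes synaptogyrin 1, a vesicle membrane protein, was the gene of the group that rose. Its values were 104, 138, 151 and 142 CPM in control and 208, 203, 209 and 227 CPM in Nav-Tsc2 mice (log2 fold change 0.67, SE 0.12, adjusted p = 0.0035, edgeR). Syngr1 was also the gene whose 12 Nav-Tsc2 libraries, at 190 to 236 CPM, all lay above the 12 control libraries, at 102 to 164 CPM, as 2.39% of all genes tested did. Syngr3, its paralog and the gene of the group with the highest level per length (170 and 182 CPM per kb), did not pass the test, with 328 to 380 CPM in control and 340 to 421 CPM in Nav-Tsc2 mice.

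Slc17a6 encodes VGLUT2, which fills vesicles with glutamate. It was at 356, 302, 302 and 375 CPM in control and 427, 410, 414 and 419 CPM in Nav-Tsc2 mice, without overlap and inside the fold limit. Slc17a7, which encodes VGLUT1 and had the lowest level per length of the group, was at 1.99 to 5.68 CPM in control and 0.617 to 3.25 CPM in Nav-Tsc2 mice. The synapsins, which tether vesicles to each other, were not called, with log2 fold changes of 0.19 (SE 0.13) for Syn1, 0.38 (SE 0.15) for Syn2 and -0.59 (SE 0.36) for Syn3. Without control 4, Syn2 (log2 fold change 0.56, adjusted p = 0.0070) and Syn3 (-0.85, adjusted p = 0.0451) were called by edgeR. Syp, which encodes the common vesicle marker synaptophysin, was at 60.0 to 79.6 CPM in control and 60.4 to 82.7 CPM in Nav-Tsc2 mice (log2 fold change 0.02, SE 0.13, adjusted p = 0.935).

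**Figure D2:**
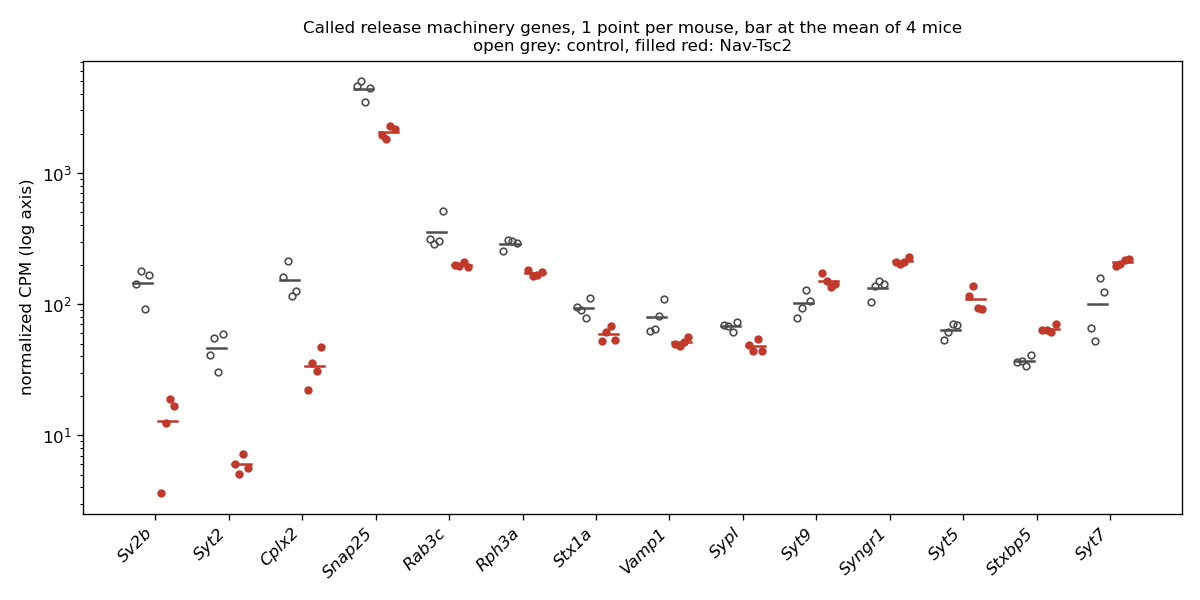
Normalized CPM (log axis) of the 14 called release machinery genes in each mouse, with control mice as open grey circles, Nav-Tsc2 mice as filled red circles and a bar at the mean of the 4 mice. Mice of the genotypes do not overlap for any of the 14, and the separation is widest for Sv2b and Syt2. The 14 were called from these same values, so the lack of overlap is partly set by that choice. Its share over all called genes was not computed.

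Several of the called genes have a close relative in the set, so the makeup of each family was followed as the share of a paralog in the family's counts per kilobase of exon. Sv2b made up 32.8%, 38.9%, 23.5% and 32.8% of the Sv2 family in control mice and 1.09%, 4.05%, 6.62% and 4.23% in Nav-Tsc2 mice, while Sv2c made up 58.3% ± 6.96 (SD, n = 4) and 82.5% ± 3.49 (SD, n = 4). Of the pair Syt1 and Syt2, Syt1 accounted for 73.9%, 66.3%, 88.2% and 75.6% in control and for 96.7% to 97.7% in Nav-Tsc2 mice. Cplx1 held 85.3% ± 3.79 (SD, n = 4) of the complexins in control and 96.7% ± 0.743 (SD, n = 4) in Nav-Tsc2 mice. In these families the control mice had a mixture, and the Nav-Tsc2 mice had almost entirely 1 paralog or, for Sv2, mainly Sv2c.

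Mice did not overlap for 8 of the 18 shares, those of Vamp1, Syt1, Sv2b, Sv2c, Cplx1, Rab3c, Stxbp5 and Syngr1. Stxbp5 held 57.2% ± 13.7 (SD, n = 4) of the tomosyn pair in control and 79.2% ± 1.88 (SD, n = 4) in Nav-Tsc2 mice, and Vamp1 held 12.8% ± 2.78 (SD, n = 4) and 6.94% ± 0.393 (SD, n = 4) of the Vamp pair. Rab3c had 19.9% and 13.5% of its family and Syngr1 14.0% and 19.6%. Each of the 8 had an exact two-sided permutation p of 0.0286, the smallest that 4 against 4 mice allow, and an adjusted p of 0.0644 over the 18 shares, so no share passed after adjustment. The other 10 shares overlapped between genotypes, among them Syn1 at 56.3% and 53.5% of the synapsins and Slc17a6 at 99.0% and 99.6% of the glutamate transporter pair. Shares of a family are bound to each other, and the falls of Sv2b, Syt2 and Cplx2 above and these shares are the same counts.

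**Figure D3:**
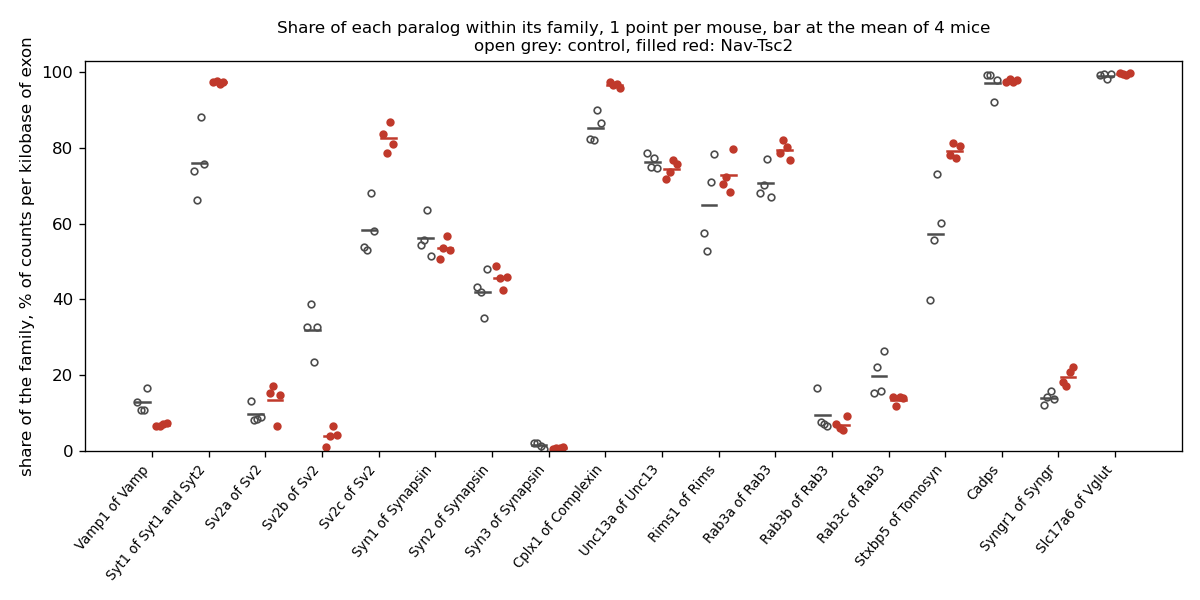
Share of each of 18 paralogs in its family, in percent of counts per kilobase of exon, for each control (open grey) and Nav-Tsc2 (filled red) mouse, with a bar at the mean of the 4 mice. The shares of Sv2b, near 32.0% in control and 4.00% in Nav-Tsc2 mice, and of Syt1, Sv2c, Cplx1 and Stxbp5 are separated, and those of the synapsins and Unc13a overlap.

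Male and female mice were 2 per genotype, and the genotype difference was compared between the sexes with an interaction term. No member passed the interaction test of edgeR after adjustment (smallest adjusted p = 0.132), as was so for all but 0.00582% of the genes tested. At an unadjusted p under 0.05 there were 11 members, against 9.22% of all genes tested, and DESeq2 passed 5 of the 45 after adjustment, against 1.98% of all genes it tested.

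For 9 of these 11 genes the mean of the male controls was below that of the female controls. The control means enter the interaction term by which the 11 were picked, so this count is partly set by that choice. Its share over all genes was not computed. Synpr, which encodes the vesicle membrane protein synaptoporin, was at 394 and 326 CPM in the male controls, 1008 and 871 CPM in the female controls, and 755 to 919 CPM in the Nav-Tsc2 mice. The log2 fold change of Synpr was 1.20 in males and -0.16 in females (adjusted interaction p = 0.132 by edgeR and 6.27e-06 by DESeq2). For Syt7 the difference was 1.75 in males and 0.64 in females (adjusted interaction p = 0.185 and 0.0011 by the same tools in that order), and for Syt1 it was 0.93 and 0.05 (0.180 and 0.0019). Syt5 (1.14 in males, 0.39 in females, adjusted p = 0.0438) and Cadps2 (1.35 and -1.55, adjusted p = 0.0291) were the other 2 that DESeq2 passed, and the value of Cadps2 in females rests on control 3, at 22.6 CPM against 1.97 to 5.74 CPM in the other 7 mice.

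Snap25 had a log2 fold change of -1.37 in males and -0.84 in females (adjusted interaction p = 0.429, edgeR), and Cplx2 of -2.71 and -1.63 (adjusted interaction p = 0.457). Markers of neuron types also differed between the control mice. The 6 nonpeptidergic markers (Mrgprd and P2rx3 among them) summed to 407 and 335 CPM in the male controls, 1326 and 1160 CPM in the female controls, and 1487 to 1631 CPM in the Nav-Tsc2 mice. Between the genotypes over all mice, their log2 fold changes were above 0 for all 6, with a median of 0.67, and 0 of the 6 were called by edgeR. The part of these marker differences in the values of Synpr, Syt7 and Syt1 was not tested.

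**Figure D4:**
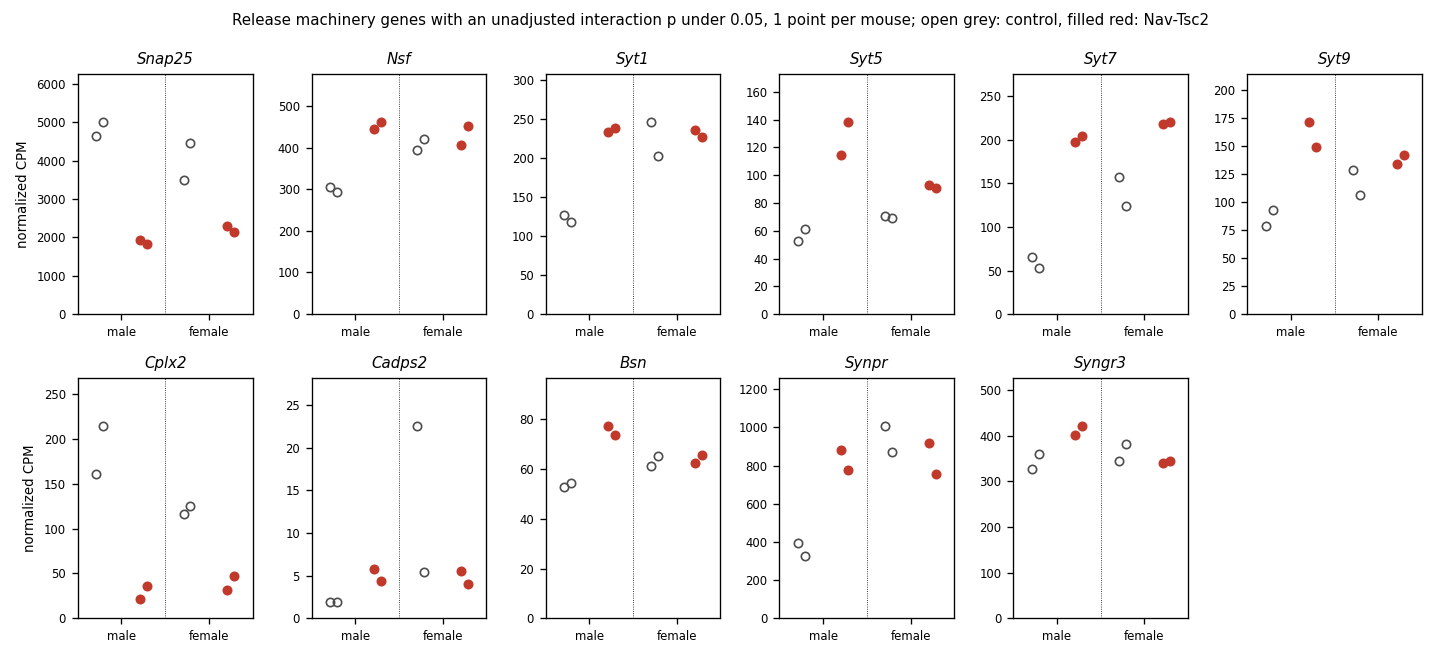
Normalized CPM of the 11 release machinery genes with an unadjusted interaction p under 0.05, with male and female mice side by side, control mice open grey and Nav-Tsc2 mice filled red, 2 mice per sex and genotype. For Synpr, Syt1 and Syt7 the male controls lie lowest, and the female controls lie nearer to the Nav-Tsc2 mice.

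Marker genes describe the sorted cells beside these differences. The 9 nociceptor markers were all detected and summed to 9323 to 11292 CPM in control and 11252 to 13477 CPM in Nav-Tsc2 mice, with 2 called lower (Isl1 among them) and Prph called higher. Their log2 fold changes were below 0 for 5 and above 0 for 4, with a median of -0.14. The 6 peptidergic markers summed to 18011, 17205, 7430 and 7943 CPM in control mice 1 to 4 and to 6410, 6783, 3667 and 4858 CPM in Nav-Tsc2 mice 1 to 4, and 3 of the 6 fell (Kit and Calca among them) and 1 rose (Gal). The log2 fold changes of the peptidergic markers were below 0 for 5 and above 0 for 1, with a median of -0.89. Of the 8 markers of myelinated neurons 1 fell (Cntnap2), and their sums of 1405 to 2176 and 1110 to 1670 CPM overlapped. The 10 glial markers summed to 2960 to 3098 CPM in control and 1940 to 2528 CPM in Nav-Tsc2 mice, with S100b called lower and Prx below 1 CPM in every mouse. The log2 fold changes of the glial markers were below 0 for 5 and above 0 for 5, with a median of 0.04. The 5 matched markers of C-fibers for light touch summed to 223 to 565 and 278 to 1658 CPM, with Th called higher and Piezo2 lower. Markers of endothelium (0.326 to 1.85 and 7.73 to 20.1 CPM, 3 of 6 tested and all 3 called higher) were low. So were those of macrophages (0.669 to 3.76 and 7.76 to 17.4 CPM, 4 of 6 tested, all 4 above 0 and 1 called higher, Cx3cr1) and fibroblasts (73.1 to 236 and 121 to 196 CPM, 0 of 6 called). With so little in the controls, endothelial and macrophage markers could pass the filter on low counts mainly through the Nav-Tsc2 mice. Their direction and calls were thus partly set by that filter. Cldn5, Cdh5, Ptprc and C1qa stayed below 1 CPM in every mouse. The part of these cell types in the differences of Sv2b, Syt2, Cplx2, Snap25 and the other release genes was not tested.

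Sequence in front of the start of 4 called genes is shown because these are the members with an entry whose falls were largest (Sv2b and Syt2) and whose rises had the smallest adjusted p (Stxbp5 and Syngr1). RefSeq promoter windows (GRCm38.p6) were given for 36 of the 45 genes. Sv2b had 4 entries, Syt2 had 2, and Stxbp5 and Syngr1 had 1 each, and 1 window per gene is shown. The windows hold the 250 bases before the start, with 39 bases that GENCODE annotates as exon left out for Stxbp5. They lie at chr7:75309263-75309512 on the minus strand for Sv2b, chr1:134646362-134646611 on the plus strand for Syt2, chr10:9901080-9901290 on the minus strand for Stxbp5 and chr15:80091084-80091333 on the plus strand for Syngr1. Capitals mark a match, on either strand, to the GC box letters CCGCCC or to the TATA box letters TATAAA.
Sv2b: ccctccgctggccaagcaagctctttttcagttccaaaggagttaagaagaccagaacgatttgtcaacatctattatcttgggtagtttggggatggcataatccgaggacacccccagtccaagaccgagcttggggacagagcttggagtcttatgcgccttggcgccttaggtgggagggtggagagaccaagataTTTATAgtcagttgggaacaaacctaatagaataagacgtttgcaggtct
Syt2: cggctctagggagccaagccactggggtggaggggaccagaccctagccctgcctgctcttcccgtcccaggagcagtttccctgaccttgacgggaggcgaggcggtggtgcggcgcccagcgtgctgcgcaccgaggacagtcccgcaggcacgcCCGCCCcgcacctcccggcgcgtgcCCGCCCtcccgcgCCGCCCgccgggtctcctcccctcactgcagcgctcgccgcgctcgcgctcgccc
Stxbp5: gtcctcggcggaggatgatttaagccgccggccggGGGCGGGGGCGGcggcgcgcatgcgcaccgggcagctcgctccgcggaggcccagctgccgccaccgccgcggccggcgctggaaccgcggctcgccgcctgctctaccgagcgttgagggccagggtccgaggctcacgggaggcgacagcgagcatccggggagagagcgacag
Syngr1: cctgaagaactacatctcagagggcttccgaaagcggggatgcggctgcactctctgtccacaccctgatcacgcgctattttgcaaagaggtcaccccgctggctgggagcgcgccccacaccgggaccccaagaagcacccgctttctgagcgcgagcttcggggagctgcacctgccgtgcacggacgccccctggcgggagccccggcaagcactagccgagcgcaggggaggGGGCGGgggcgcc

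The windows shown differ in base composition, and other windows of Sv2b and Syt2 are not described. Sv2b had 48.8% G and C, 7 CpG dinucleotides, no GC box letters and a match to the TATA box letters, whereas Syt2 had 76.0% G and C, 30 CpG dinucleotides and 3 GC box matches. Stxbp5 and Syngr1, which rose, had 78.4% and 68.4% G and C with 2 and 1 GC box matches. The median over all windows of the table was 52.4% and over those of the members 61.2%.

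Counting a gene when any of its windows held the letters, 28 of the 36 members with a window (77.8%) had the GC box letters, as did 35.4% of all 27025 genes with a window. They were present for 6 of the 8 genes called lower, all 3 called higher with a window and 19 of the 25 not called. The TATA box letters were found for 2 members (Rab3b and Sv2b), the E-box letters CACGTG for 5 members and the cyclic AMP response element letters TGACGTCA for 1 member, Syn1. The shares over all genes were 14.3%, 6.86% and 1.77%. Sv2b was among the members with the E-box letters, in a window not shown. A match of letters is not a measured binding site.

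Other genes of the release pathway, from a list of 80 of which 67 were tested, had 9 called lower (13.4%, against 8.00% of all genes tested) and 6 called higher (8.96%, against 9.12%) and a median log2 fold change of -0.09. The smallest adjusted p among those lower was that of Sytl3, which encodes a synaptotagmin-like protein that binds Rab27, at 83.2, 96.4, 40.2 and 83.9 CPM in control and 6.58, 9.00, 11.0 and 14.8 CPM in Nav-Tsc2 mice. The mice were far apart, with a log2 fold change of -2.87 (SE 0.32, adjusted p = 0.0004, edgeR). Among those higher it was that of Madd, which encodes an exchange factor that loads Rab3 with GTP, at 59.7, 63.2, 75.9 and 63.1 CPM in control and 116, 116, 93.5 and 107 CPM in Nav-Tsc2 mice (log2 fold change 0.72, SE 0.11, adjusted p = 0.0017, edgeR). The others lower included Nrxn3, which encodes a neurexin of the presynaptic membrane, Rab3d, Rab27a, Rab27b, Cask, Hspa8 and Syt6, and the others higher included Rab3gap2, Vamp8, Slc18a1 and Sncb. Of the genes named here, Cask and Sncb kept their call in 9 of 16 alternative fits, Rab27b in 10, Hspa8 and Syt6 in 11 and Slc18a1 in 15, and the other 7 in all 16.

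Genes of vesicle endocytosis, the step that recovers membrane after release, numbered 36, of which 35 were tested. Here 3 fell (Sh3gl2, Epn3 and Amph; 8.57%, against 8.00% of all genes tested) and 6 rose (Epn1, Gak, Dnm2, Ap2a1, Clta and Dnm1; 17.1%, against 9.12%), with a median log2 fold change of 0.16. Sh3gl2, which encodes endophilin A1, fell by 1.09 on the log2 scale (SE 0.18, adjusted p = 0.0027, edgeR), from 39.0 to 71.1 CPM in control to 22.4 to 26.4 CPM in Nav-Tsc2 mice, and missed the threshold over 24 libraries (adjusted p = 0.0578). Epn1, which encodes the clathrin adaptor epsin 1, rose by 1.28 (log2, SE 0.17, adjusted p = 0.0008, edgeR), from 16.4 to 24.4 CPM to 40.1 to 55.4 CPM. The calls on Epn1, Gak and Epn3 were kept in all 16 alternative fits, that on Ap2a1 in 12, on Dnm2 in 11, on Clta and Amph in 10 and on Dnm1 in 7.

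Exons of 6 members overlapped those of another annotated gene by more than 5% of their length, namely Syt4 (14.5%), Syt7 (5.13%), Doc2b (5.53%), Rab3b (9.00%), Syn3 (14.1%) and Syp (16.8%). Whether counting used strand is not given in the sources used here, so reads of these overlaps cannot be assigned to 1 of the genes. Of the 14 called genes, 10 kept their call in all 16 alternative fits, and these were Snap25, Stx1a, Stxbp5, Syt2, Syt5, Cplx2, Rab3c, Rph3a, Sv2b and Syngr1.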

How the data were processed

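The RNA-seq data were 24 libraries of sorted L4 DRG cells. Each of 4 control and 4 Nav-Tsc2 mice had 3 of them as technical replicates. Libraries were made with a SMARTer Ultra Low RNA kit and read for 50 bases from 1 end. Alignment to mm10 was done by the authors with STAR and counting with HTSeq, and they deposited 1 raw count per gene and library, without normalization. Tool versions are not given in the sources used here. A deposited table of the authors' own DESeq2 comparison was not used. Rows that name no gene made up 47.6% to 51.5% of the totals in control and 49.0% to 55.9% in Nav-Tsc2 libraries and were left out. No pair of libraries had identical counts. The 3 libraries share an animal, so their counts were summed and the mouse was the replicate.

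Sums were filtered with filterByExpr, scaled by TMM and tested with edgeR 4.0.16 (quasi-likelihood, R 4.3.3), with Benjamini-Hochberg adjustment over all 17178 genes. A call needed an adjusted p below 0.05 with a log2 fold change beyond 0.5 in either direction, as in the study's methods, which used DESeq2. A standard error is the size of the log2 fold change over the root of its F statistic. Levels per length used GENCODE M21 exon lengths. Reads were amplified without molecular identifiers, so counts give counting error only and the spread between mice is used instead. The fit was tested on simulated data. It recovered 59 of 105 genes changed by 1 on the log2 scale and 84 of 95 changed by 2, with 9 false calls. The fit of the interaction with sex recovered 7 of 105 and 47 of 95, with 4 false calls. A gene that was not called may therefore still differ, above all between the sexes. Alternatives were DESeq2 1.42.0 or only its size factors, upper-quartile scaling, sex as a covariate, a block for the replicate number, no filter on low counts, limma 3.58.1 (voom) over 24 libraries with a random effect of the mouse, libraries scaled to equal depth and leaving out each mouse. The genes named are Tsc2, every called member, members that passed by adjusted p alone, the member of each role group with the highest and the lowest level per length, and in each other list the gene with the smallest adjusted p in each direction. Remaining members are given to complete the account, and genes listed by name alone were picked with their values in view. Some genes of the other lists are not reported here by name. The members, role groups and lists were chosen with earlier results of these data known.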

Additional observations from a re-analysis of the deposited data

Results flagged for a closer look

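In 6 of the 90 groups of 4 mice (each of the 45 genes in each genotype), 1 mouse stood apart from the other 3 by more than Dixon's critical value, where chance alone gives about 1 in 20, or 4.5 groups. Doc2b was at 0.602 CPM in control 4 and at 0 to 0.0568 CPM in the other controls. Cadps2 was at 22.6 CPM in control 3 and at 1.97 to 5.46 CPM in the other controls. Rab3b was at 98.0 CPM in control 1 and at 29.6 to 41.1 CPM in the others. Rab3c was at 511 CPM in control 4 and at 287 to 311 CPM in the others. In the Nav-Tsc2 mice, Syn1 was at 88.8 CPM in mouse 1 and at 100.6 to 102 CPM in the others, and Syn2 was at 161 CPM in mouse 3 and at 182 to 186 CPM in the others.

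Syngr3 differed in direction between the sexes, since both male Nav-Tsc2 mice (401 and 421 CPM) were above both male controls (328 and 359 CPM) and both female Nav-Tsc2 mice (340 and 344 CPM) were below both female controls (345 and 380 CPM). The interaction term was -0.34 on the log2 scale and did not pass after adjustment over all genes (edgeR quasi-likelihood test, p = 0.0407, adjusted p = 0.507).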

How the results depend on the processing

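Across the alternatives, 7 to 10 members were called lower and 3 to 7 higher. DESeq2 called 9 lower and 6 higher, the random effect over 24 libraries 8 and 6, and the adjusted p alone 10 and 7. Leaving out 1 mouse gave 7 to 10 lower and 3 to 7 higher members and 2145 to 3502 genes in all, against 2941, and DESeq2 called 4166. The median log2 fold change of the members was -0.11 over 24 libraries and -0.19 to -0.11 when 1 mouse was left out. The interaction with sex passed for 0 members by edgeR and for 5 by DESeq2. By counts not divided by length, the Rab3a share differed by 11.6 points (exact permutation p = 0.0286), and with libraries scaled to equal depth the Stxbp5 share differed by 20.5 points (exact permutation p = 0.0571). No fit moved the median of all genes by more than 0.1 from 0. Of all called genes 63.8% were higher over 24 libraries, against 53.3%.

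Of the values of single genes under the alternatives, 693 kept their direction and their side of the threshold, 18 lost it, 8 passed it and 17 changed sign. The sign changed only for members that were not called. Cadps2 had a log2 fold change of 0.078 with the block, 0.43 over 24 libraries and -1.03 to 0.65 when 1 mouse was left out, positive without control 3. Sv2a had -0.035 with the block, -0.059 over 24 libraries and -0.094 to 0.31 when 1 mouse was left out, negative without control 2 or 3 and without Nav-Tsc2 1, 2 or 4. Sv2c had -0.030 to 0.13, negative without Nav-Tsc2 4. Syp had -0.0073 with upper-quartile scaling and -0.066 to 0.091 when 1 mouse was left out, negative without control 1 or 2 and without Nav-Tsc2 2 or 4. Slc17a7 had 0.22 over 24 libraries. The cause was not tested.

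Same-numbered mice share a number and a sex, and deviations from the genotype mean over 6896 genes correlated at 0.0049, 0.06, -0.05 and 0.05 for the 4 numbers, none above 0.1. With the replicate number as a block, 9 members were called lower and 4 higher, Syt9 losing its call, and 2445 genes in all were called.

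Levels below 4 CPM limit the comparison of Doc2b, Slc17a7 and Rimbp2, and 2 mice per sex limit that of the sexes.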

Other observations

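The single libraries of 100 cells show how evenly a message was spread. Among the genes that fell, Sv2b libraries ranged from 8.34 to 265 CPM in control (median 153 CPM) and from 0.932 to 28.4 CPM in Nav-Tsc2 mice (median 8.03 CPM), and Syt2 libraries from 3.12 to 77.9 CPM (median 45.9 CPM) and from 1.36 to 9.48 CPM (median 5.63 CPM). Rph3a libraries ranged from 106 to 429 CPM in control and from 62.8 to 236 CPM in Nav-Tsc2 mice, although the mouse sums were close within each genotype. Snap25 libraries ranged from 2021 to 6667 CPM in control and from 1629 to 2396 CPM in Nav-Tsc2 mice, and 7 of the 12 Nav-Tsc2 libraries lay below the lowest control library. For Rab3c 11 of 12 and for Sypl 10 of 12 Nav-Tsc2 libraries did so. The other genes called lower had fewer such libraries, namely 7 for Sv2b, 4 for Stx1a, 2 for Syt2, 1 each for Vamp1 and Rph3a and 0 for Cplx2. Cadps, which was not called, had 10 of 12. Among the genes that rose, 12 of 12 Nav-Tsc2 libraries lay above the highest control library for Syngr1, 10 of 12 for Stxbp5, 4 of 12 for Syt5, 2 of 12 for Syt7 and 0 of 12 for Syt9.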
